A study of Mus musculus with 6 samples.

Results

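Lax1 and 4 other genes for membrane-bound signalling adaptors of lymphocytes, Lat, Lat2, Pag1 and Sit1, were followed in haematopoietic progenitors with or without a P95H allele of the splicing factor gene Srsf2. The rows of the deposited count table whose symbol was one of these 5 names were taken, 5 of 26027 genes, and each name matched 1 row. Lax1 was chosen by its counts in these 6 libraries, for its lower level in P95H/+, so its genotype difference is a description and carries no test. The other 4 were taken as adaptors of the same kind.

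RNA came from Lin-/cKit+/eYFP+ bone marrow cells, labelled as immature multipotent progenitors, of 3 Srsf2 P95H/+ libraries and 3 Srsf2 +/+ (wild-type) libraries. All mice were C57BL/6, had been given tamoxifen, and carried hScl-CreERT, a tamoxifen-inducible Cre named for the blood stem cell gene Scl, and R26eYFP, a reporter that is switched on by Cre and was used in the sort. P95H/+ replicates 1 and 2 were female and replicate 3 was male, all at 32 weeks. Wild-type replicate 1 was a female of 54 weeks, and wild-type replicates 2 and 3 were males of 32 weeks. Sex and age were therefore not balanced between the genotypes. The labels do not say that each library is a separate mouse, and if some are not, errors and p-values here reflect no more than the spread from library to library.

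Totals ran from 10747941 to 22614408 counts in P95H/+ libraries and from 16842751 to 23010510 counts in wild-type libraries. Kit, the receptor that marks the sort, stood at 476 to 548 CPM in P95H/+ and at 482 to 532 CPM in wild-type libraries, where CPM is the count divided by the library total and brought to a shared scale. Cd3e, a T cell receptor chain, stood at no more than 0.186 CPM in any P95H/+ library and 0.348 CPM in any wild-type library. Some other T cell markers were higher, such as Cd28 at 3.54 to 7.92 CPM in P95H/+ and 4.87 to 12.6 CPM in wild type. A list of 14 T cell markers summed to 14.9 to 19.0 CPM in P95H/+ and 16.8 to 34.3 CPM in wild type. Srsf2 itself averaged 331 ± 14.2 CPM in P95H/+ libraries and 332 ± 9.79 CPM in wild-type ones (SD, n = 3 each), and the base change cannot be seen in gene counts. Replicate 3 of both genotypes stood apart by a trend with GC content. Genes whose longest transcript had at most 40% GC had a median deviation from their own 6-library mean log2 level of -0.78 for P95H/+ replicate 3, -0.56 for wild-type replicate 3 and 0.29 to 0.42 in the other 4 libraries. The member differences and the calls are therefore given with and without replicate 3 of both genotypes. The fit without replicate 3 compared P95H/+ females of 32 weeks with a wild-type female of 54 weeks and a wild-type male of 32 weeks. Genotype cannot be told apart from sex and age in that fit.

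Transmembrane adaptors have almost no part outside the cell and no enzyme activity. Kinases of the Src and Syk families phosphorylate tyrosines in their cytoplasmic tails when an antigen or Fc receptor is engaged, and the phosphorylated tails gather SH2-domain proteins such as Grb2, Gads and phospholipase C gamma, or the inhibitory kinase Csk. Lat and Lat2 are known mainly as carriers of the activating signal, Lat in T cells, mast cells and platelets and Lat2 in B, mast and myeloid cells. Lax1, Pag1 and Sit1 are known mainly as brakes in mouse lymphocytes. Multipotent progenitors lie upstream of these lineages, and some of them already transcribe lymphoid genes at low levels.

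On mm10, Lax1 (ENSMUSG00000051998) lies on chromosome 1 at 133679091 to 133690108. Lat (ENSMUSG00000030742) lies on chromosome 7 at 126363824 to 126369570, and Lat2 (ENSMUSG00000040751) on chromosome 5 at 134600022 to 134615025. Pag1 (ENSMUSG00000027508) lies on chromosome 3 at 9687479 to 9833679, and Sit1 (ENSMUSG00000028460) on chromosome 4 at 43482081 to 43483734. Each of the 5 codes for a protein and is read from the minus strand. In GENCODE M21, exons of Lat2 share 952 bases, 36.3% of its exon length, with Rfc2, a replication factor gene on the opposite strand, so that the level of Lat2 is uncertain if counting ignored strand. Lat overlaps a microRNA gene, Mir7058, within its own exons, and Pag1 overlaps 2 noncoding genes in introns only. Lax1 and Sit1 overlap no other annotated gene.

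The 250 bases before the annotated start are shown for Lax1, the member with the lower level, upstream of the first of its 2 starts there, and for Lat and Sit1, the other 2 with an entry in RefSeq's promoter table for GRCm38.p6. They are read 5′ to 3′ on the minus strand, and capitals mark GGAA, the core that ETS factors bind, or TTCC, the same core on the other strand. The windows are chr1:133690109-133690358 for Lax1, chr7:126369569-126369818 for Lat and chr4:43483710-43483959 for Sit1.
Lax1: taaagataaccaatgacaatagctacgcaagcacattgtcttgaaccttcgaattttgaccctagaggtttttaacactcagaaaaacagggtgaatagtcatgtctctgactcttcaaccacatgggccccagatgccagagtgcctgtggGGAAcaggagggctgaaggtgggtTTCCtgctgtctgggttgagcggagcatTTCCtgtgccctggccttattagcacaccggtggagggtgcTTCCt
Lat: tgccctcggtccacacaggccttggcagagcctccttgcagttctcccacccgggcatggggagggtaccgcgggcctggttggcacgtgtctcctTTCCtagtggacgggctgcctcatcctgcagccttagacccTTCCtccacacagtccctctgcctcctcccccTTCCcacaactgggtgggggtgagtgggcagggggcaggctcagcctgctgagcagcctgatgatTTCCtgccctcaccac
Sit1: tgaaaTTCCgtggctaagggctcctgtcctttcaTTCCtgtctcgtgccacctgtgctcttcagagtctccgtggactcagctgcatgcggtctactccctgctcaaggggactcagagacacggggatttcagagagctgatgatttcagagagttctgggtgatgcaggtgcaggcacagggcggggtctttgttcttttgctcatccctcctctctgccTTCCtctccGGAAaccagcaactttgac
GGAA was found 4 times in each window on either strand, and 93.4% of 32536 such windows in the genome hold it at least once. The E-box CANNTG was found 2 times in the Lax1 and Lat windows and 3 times in that of Sit1, and 66.2% of windows hold it. Lax1 alone of the 3 held TGTGGT, a Runx core, at 1 place, as do 14.0% of windows, and none of the 3 held GATAAG, the GATA motif found in 6.42%. None of these motifs overlapped another of the 4 kinds except the Runx core and the first E-box before Lax1, which share bases. A match in these letters is no evidence of binding.

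Lax1 was lower in P95H/+ progenitors, with a mean level 0.464 times that of wild type in the edgeR fit. It stood at 4.15, 3.54 and 4.28 CPM in P95H/+ replicates 1, 2 and 3, from 90, 80 and 46 counts, against 10.995, 9.10 and 7.01 CPM in wild-type replicates 1, 2 and 3, from 253, 192 and 118 counts. All P95H/+ libraries lay below all wild-type libraries, and the P95H/+ libraries lay closer together. The means were 3.99 ± 0.397 CPM and 9.03 ± 2.00 CPM in P95H/+ and wild type (SD, n = 3 each). The log2 fold difference was -1.11 (SE 0.27). The 95% Poisson intervals, which cover counting error only, reached up to 5.71 CPM in P95H/+ replicate 3 and down to 5.80 CPM in wild-type replicate 3, the closest pair. Of 17144 tested genes, 5.93% had every P95H/+ library below every wild-type library, and Lax1 is one of them. Since Lax1 was picked for its lower level, nothing is read from this.

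Within the wild-type group, the highest Lax1 level was in the older female and the lowest in replicate 3. Among the 3 male libraries, all of 32 weeks, the P95H/+ library stood at 4.28 CPM and the wild-type libraries at 9.10 and 7.01 CPM. Between libraries of the same replicate number, log2 ratios of CPM were -1.40 for number 1, -1.36 for number 2 and -0.71 for number 3. The log2 fold difference lay between -1.27 and -0.95 when each library was left out in turn, was -1.35 without replicate 3 of both genotypes, and was -1.15 with sex in the model. With correction for GC content it was -1.09. Lax1 has a transcript GC content of 50.2%. In P95H/+ replicate 3, Lax1 deviated by -0.39 from its own 6-library mean on the log2 scale, and the 4286 genes of 50% to 55% GC by a median of 0.22. Lax1 lies at the lower edge of that class, and the 4581 genes of 45% to 50% GC deviated by a median of -0.13 there.

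**Figure D1:**
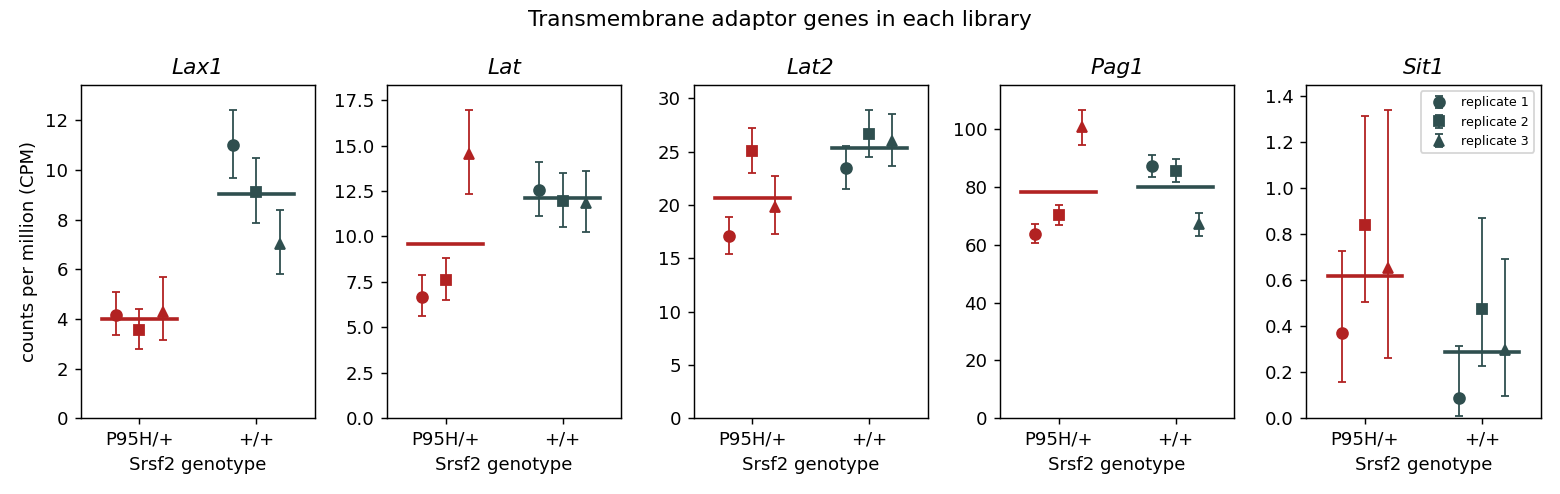
Level of each of the 5 adaptor genes in CPM (vertical axis, linear from 0) in 3 Srsf2 P95H/+ (left) and 3 Srsf2 +/+ (right) libraries. Symbols mark the replicate number, bars are 95% Poisson intervals of the count and horizontal lines are group means. The genotypes are separate for Lax1, at up to 4.28 and from 7.01 CPM, and overlap for the other 4 genes.

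Lat, the scaffold of T cell receptor signalling, did not pass the test between genotypes. It stood at 6.69, 7.61 and 14.5 CPM in P95H/+ replicates 1, 2 and 3, against 12.6, 11.9 and 11.8 CPM in wild type. P95H/+ replicates 1 and 2 lay below all wild-type libraries and replicate 3 above all of them, so that the groups overlapped. The means were 9.60 ± 4.28 CPM and 12.1 ± 0.398 CPM in P95H/+ and wild type (SD, n = 3 each). The log2 fold difference was -0.26 (SE 0.34, 95% interval -1.06 to 0.54), with an adjusted p of 1.00 in edgeR's quasi-likelihood F test over all genes.

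The Lat value rested on replicate 3 of P95H/+. Without that library the log2 fold difference was -0.71 (SE 0.19), and without replicate 3 of both genotypes it was -0.75 (SE 0.16, edgeR adjusted p 0.0646), which missed the threshold of 0.05. Transcripts of Lat are GC-rich, at 57.5%. In P95H/+ replicate 3, Lat deviated by 0.55 from its own mean on the log2 scale, and the 2777 genes of 55% to 60% GC by a median of 0.53. In P95H/+ replicates 1 and 2 these deviations were -0.60 and -0.46 for Lat and -0.21 and -0.19 for genes of like GC content. With the GC correction the difference of all 6 libraries was -0.38 (SE 0.21, edgeR adjusted p 1.00).

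**Figure D2:**
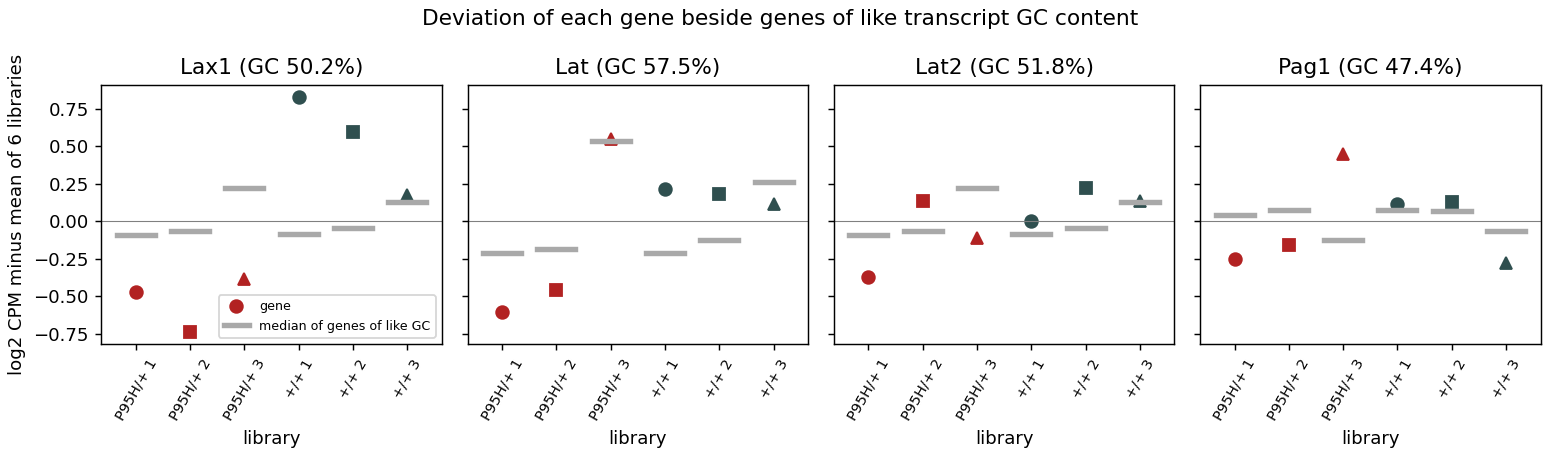
Log2 CPM of Lax1, Lat, Lat2 and Pag1 in each library minus the gene's mean over the 6 libraries (vertical axis), for P95H/+ (left 3) and +/+ (right 3) libraries. Grey bars are the median of the same deviation over genes of like transcript GC content. In P95H/+ replicate 3, Lat at 0.55 lies at the grey bar of 0.53, while Lax1 lies below its bar and Pag1 above it. The bar of Lax1 is for genes of 50% to 55% GC, and Lax1, at 50.2%, is at the lower edge.

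Lat2, also called NTAL or LAB, did not pass the test either. It stood at 17.1, 25.0 and 19.8 CPM in P95H/+ replicates 1, 2 and 3, against 23.4, 26.6 and 26.01 CPM in wild type. P95H/+ replicate 2 lay within the wild-type range and the other 2 P95H/+ libraries lay below it. The log2 fold difference was -0.23 (SE 0.22, 95% interval -0.73 to 0.28, edgeR adjusted p 1.00), and it stayed at -0.22 without replicate 3 of both genotypes. Rfc2, which shares exon bases with Lat2 on the other strand, stood at 153, 162 and 149 CPM in P95H/+, against 151, 152 and 179 CPM in wild type. Its part in the Lat2 counts was not tested.

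Pag1, the widely expressed anchor of Csk, had the most counts of the 5 genes. It stood at 63.9, 70.3 and 101 CPM in P95H/+ replicates 1, 2 and 3, against 87.2, 85.6 and 67.0 CPM in wild type. The replicate 3 libraries held both the highest value, in P95H/+, and a low one, in wild type. The log2 fold difference was 0.05 (SE 0.25, 95% interval -0.55 to 0.64, edgeR adjusted p 1.00), and its sign turned to -0.03 when libraries were scaled by their totals alone. Without replicate 3 of both genotypes it was -0.33 (SE 0.08, edgeR adjusted p 0.102). With a transcript GC content of 47.4%, Pag1 deviated by 0.45 from its own mean in P95H/+ replicate 3, and genes of 45% to 50% GC by a median of -0.13.

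Sit1, which recruits the phosphatase Shp2 in lymphocytes, was close to the detection limit. It had 8, 19 and 7 counts in P95H/+ replicates 1, 2 and 3, against 2, 10 and 5 counts in wild type. In CPM these were 0.369, 0.840 and 0.651 in P95H/+, against 0.0869, 0.474 and 0.297 in wild type. Wild-type replicate 2 lay above P95H/+ replicate 1, so that the groups overlapped. The log2 fold difference was 1.18 (SE 0.61, 95% interval -0.24 to 2.60, edgeR adjusted p 1.00), the opposite sign to Lax1, and it was 0.71 without wild-type replicate 1. Without replicate 3 of both genotypes it was 1.16 (SE 0.71, edgeR adjusted p 0.488).

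Between 17144 genes tested with edgeR, 0 passed an adjusted p of 0.05, which is 0.0%, and 361 had an unadjusted p under 0.05. DESeq2 gave 8 calls, and 332 genes had an unadjusted p under 0.05 there. With a replicate block, 1 gene was called. Neither Lat, Lat2, Pag1 nor Sit1 was called in any of these fits, nor without replicate 3 of both genotypes, where 144 of 17371 genes were called, 0.829%, most of them lower in P95H/+ (112 genes, 0.645%). All 5 adaptor genes passed the filter on low counts. With 3 libraries a group, the smallest two-sided p of an exact permutation test on 1 gene is 0.1.

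**Figure D3:**
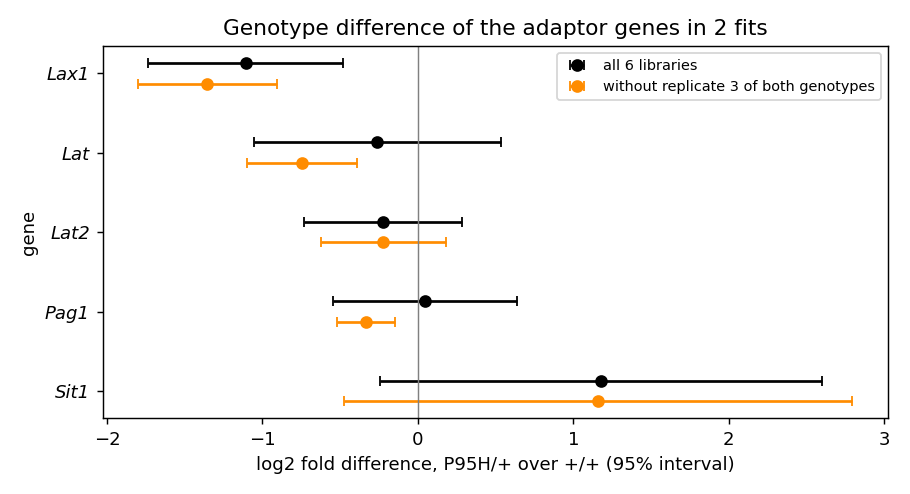
Log2 fold difference of P95H/+ over +/+ (horizontal axis) with its 95% interval for each adaptor gene, from all 6 libraries (black) and from the 4 libraries without replicate 3 (orange). Lax1 stays near -1.11 and -1.35, Lat and Pag1 move to the left without replicate 3, at -0.75 and -0.33, and Sit1 has the widest intervals. Lax1 was picked for this difference.

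Per kilobase of merged exons, Pag1 and Lat2 were the highest of the 5 genes in all 6 libraries and Sit1 the lowest. In P95H/+ the levels were 8.17 ± 2.05 CPM per kilobase for Pag1, 7.87 ± 1.54 for Lat2, 3.47 ± 1.55 for Lat, 1.73 ± 0.172 for Lax1 and 0.491 ± 0.188 for Sit1 (SD, n = 3). In wild type they were 8.34 ± 1.17 CPM per kilobase for Pag1, 9.67 ± 0.648 for Lat2, 4.37 ± 0.144 for Lat, 3.91 ± 0.864 for Lax1 and 0.227 ± 0.153 for Sit1 (SD, n = 3). Pag1 and Lat2 changed places between libraries of each genotype. In wild type the means of Lat and Lax1 differed by less than the SD of Lax1, though by more than that of Lat. Lax1 was above Lat in wild-type replicate 1, and below Lat in wild-type replicates 2 and 3 and in all 3 P95H/+ libraries.

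Ratios within a library do not depend on how libraries are scaled. The level of Lax1 per kilobase over that of Pag1 was 0.270, 0.209 and 0.177 in P95H/+ replicates 1, 2 and 3, against 0.523, 0.441 and 0.434 in wild type. Over Lat2 it was 0.276, 0.160 and 0.245 in P95H/+, against 0.533, 0.388 and 0.306 in wild type. Both ratios were lower in every P95H/+ library than in any wild-type library. Over Lat it was 0.744, 0.557 and 0.353 in P95H/+, against 1.05, 0.913 and 0.711 in wild type, and here P95H/+ replicate 1 lay above wild-type replicate 3. These ratios contain the Lax1 level that chose the gene and are given as a description.

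The partners of the adaptors were read from a list of 91 genes, of which 84 passed the filter and 0 were called in either direction among all genes in edgeR. Of these 84, 40 had a log2 fold difference below 0, with a median of 0.02 against 0.02 for all tested genes. In 6 of them, 7.14%, every P95H/+ library lay below every wild-type library, against 5.93% of all tested genes, and in 0 every P95H/+ library lay above, against 1.91%. Without replicate 3 of both genotypes the median was -0.11, and 2 of the 84 were called, both lower in P95H/+. Of all tested genes, 0.829% were called in that fit and 0.645% were called lower. Of the 2 partner genes, Blk, a Src family kinase of B cells, was at -2.28 (SE 0.37, edgeR adjusted p 0.0272). Plcg1, a phospholipase that binds Lat, was at -0.45 (SE 0.08, edgeR adjusted p 0.0467). They were named after their values were seen. With P95H/+ replicate 3, which held 3.81 CPM of Blk and 87.7 CPM of Plcg1, their groups overlapped. Blk stood at 0.508 and 0.442 CPM in P95H/+ replicates 1 and 2. In the fit without replicate 3 it passed the filter only through wild type, so nothing is read from its call.

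Of the other transmembrane adaptors, Prr7 and Lst1 passed the filter. Prr7 averaged 3.99 ± 3.16 CPM over the P95H/+ libraries and 4.36 ± 1.72 CPM over wild type, and Lst1 9.79 ± 4.19 and 10.3 ± 0.636 CPM over P95H/+ and wild type (SD, n = 3 each). Lime1 and Trat1, adaptors of T cells, stood at no more than 0.279 and 0.265 CPM in any library. Among 28 tested cytosolic adaptors and docking proteins the median log2 fold difference was 0.01. Sla2, an adaptor that dampens antigen receptor signalling, stood at 3.78, 4.02 and 5.21 CPM in P95H/+, against 8.04, 7.30 and 7.48 CPM in wild type. These groups did not overlap, at a log2 fold difference of -0.74 (SE 0.25, edgeR adjusted p 1.00). Dok2, another adaptor that dampens signalling, had 0.63 (SE 0.50) and Gab3, a docking protein, -0.31 (SE 0.28). Cbl, a ubiquitin ligase, and Grb2, which binds phosphorylated Lat, had the highest CPM of the group. Their means were 430 ± 17.7 CPM over P95H/+ and 484 ± 102 CPM over wild-type libraries for Cbl, and 199 ± 9.54 and 192 ± 47.2 CPM in P95H/+ and wild type for Grb2 (SD, n = 3 each).

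Among 24 tested kinases and phosphatases the median was -0.01. Lck, the Src family kinase that starts T cell receptor signalling, stood at 3.69, 2.30 and 6.33 CPM in P95H/+, against 8.13, 7.20 and 7.90 CPM in wild type. These groups did not overlap, at a log2 fold difference of -0.85 (SE 0.39, edgeR adjusted p 1.00). Zap70, the Syk family kinase of T cells, was at 0.447 ± 0.425 CPM over P95H/+ and 0.808 ± 0.135 CPM over wild-type libraries, and Yes1, a Src family kinase, at 1.40 ± 0.626 and 2.83 ± 1.37 CPM in P95H/+ and wild type (SD, n = 3 each). Zap70 passed the filter only through wild type, so nothing is read from its direction. Syk itself, at 320 ± 103 and 320 ± 36.2 CPM in P95H/+ and wild type, and the lipid phosphatase Inpp5d, at 333 ± 94.7 and 333 ± 64.0 CPM, were far higher.

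Among 19 tested enzymes and exchange factors the median was 0.11. Dgka, a diacylglycerol kinase that limits Ras activation, stood at 15.0, 14.6 and 15.4 CPM in P95H/+, against 19.6, 19.4 and 18.5 CPM in wild type. The groups did not overlap and varied little, and the log2 fold difference was -0.28 (SE 0.19, edgeR adjusted p 1.00). Rasgrp1, a Ras exchange factor of lymphocytes, had -0.56 (SE 0.62). Dgkz, another diacylglycerol kinase, had 0.30 (SE 0.37) and Itpr1, a calcium channel of the endoplasmic reticulum, 0.03 (SE 0.17). Of 14 receptor chains, 11 were tested, with a median of -0.06, and in Cd247, Cd3d and Cd79b, 27.3% of the tested chains against 5.93% of all tested genes, every P95H/+ library lay below every wild-type library, Cd79b being named after its values were seen. Cd247, the zeta chain, averaged 1.85 ± 0.413 CPM over P95H/+ and 2.71 ± 0.490 CPM over wild-type libraries, and Cd3d 0.609 ± 0.0682 and 0.920 ± 0.264 CPM in P95H/+ and wild type (SD, n = 3 each). Clec1b, a platelet receptor, had a log2 fold difference of -0.67 (SE 0.48). It passed the filter only through wild type, so nothing is read from its direction. The highest of the group were Tyrobp, at 106 ± 6.69 CPM over P95H/+ and 117 ± 14.1 CPM over wild-type libraries, and Fcgr3, at 116 ± 30.0 CPM over P95H/+ and 120 ± 22.5 CPM over wild-type libraries (SD, n = 3 each). They encode a signalling chain and an Fc receptor of myeloid and NK cells.

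**Figure D4:**
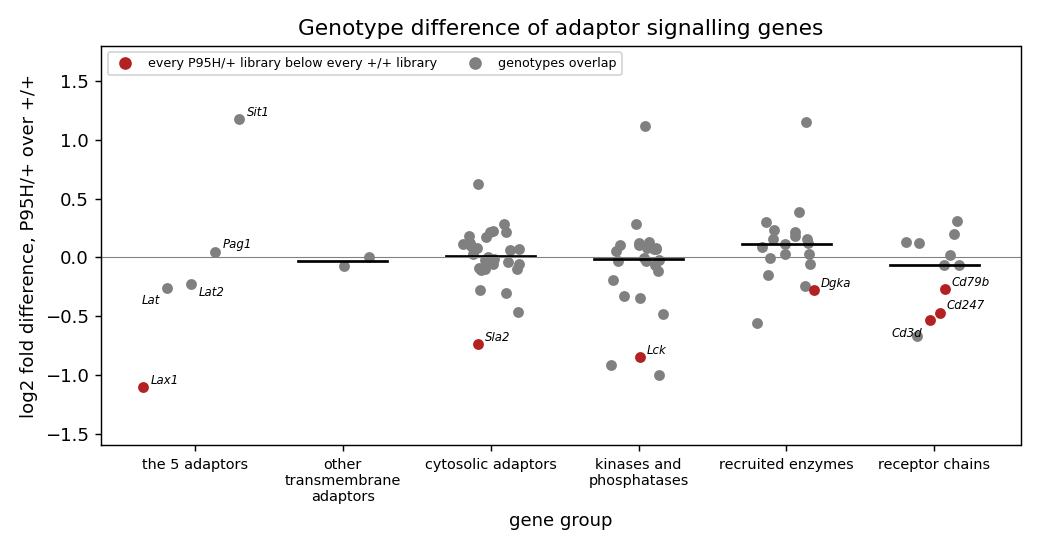
Log2 fold difference of P95H/+ over +/+ (vertical axis) for the 5 adaptors and for the tested genes of 5 groups of signalling partners, with black lines at the group medians. Red points are genes with every P95H/+ library below every +/+ library, Lax1 and 6 partner genes. The group medians lie between -0.06 and 0.11.

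The levels of cell type markers in the same libraries are set beside Lax1, since in bulk RNA fewer cells of a type and less RNA per cell cannot be told apart. Of all 17144 tested genes, 8047 had a log2 fold difference below 0, and in 5.93% every P95H/+ library lay below every wild-type library. The 14 T cell markers summed to 14.9, 17.7 and 19.0 CPM in P95H/+ replicates 1, 2 and 3, against 34.3, 24.5 and 16.8 CPM in wild type. The sums overlapped, and they had the same order as Lax1 among the wild-type libraries but not among the P95H/+ libraries. All 9 tested T cell markers had a negative log2 fold difference, with a median of -0.56, and in 3 of them, 33.3%, every P95H/+ library was the lower. These were Trbc1, Cd3d and Cd247, of which Cd3d and Cd247 are also counted among the receptor chains above. Trbc1, at 0.646, 0.708 and 0.372 CPM in P95H/+, passed the filter only through wild type. So did Cd2, at 0.277, 0.310 and 2.14 CPM in P95H/+. Nothing is read from their direction, nor from the count of 9, the median of -0.56 and the 33.3%, which include them. The 10 NK cell markers summed to 9.69, 12.6 and 9.40 CPM in P95H/+, against 27.6, 16.9 and 10.2 CPM in wild type. All 8 tested members were negative, with a median of -0.87, and in 1 of them, 12.5%, P95H/+ was the lower throughout. That member, Klrd1, stood under 0.5 CPM in every P95H/+ library. Ncr1 stood at 0.277, 0.177 and 0.930 CPM in P95H/+, against 3.00, 0.853 and 0.594 CPM in wild type. Klrd1 and Ncr1 passed the filter only through wild type, so nothing is read from their direction. Nor is anything read from the count of 8 and the median of -0.87, which include them. Cd3e was under 0.5 CPM in every library, Cd3g was at 0 in P95H/+ replicate 1 and Klre1, an NK cell receptor gene, at 0 in P95H/+ replicate 3. Without replicate 3 of both genotypes the median was -0.75 over 8 tested T cell markers and -2.11 over 7 tested NK cell markers, and 0 members of either list were called. In that fit the NK cell markers Ncr1, Klrd1, Eomes and Tbx21 and the T cell marker Cd2 passed the filter only through wild type. They stood under 0.5 CPM in P95H/+ replicates 1 and 2, so the filter fixed their negative sign. Nothing is therefore read from the median of -2.11.

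The 12 B cell markers summed to 82.7, 79.7 and 185 CPM in P95H/+, against 113, 158 and 97.5 CPM in wild type, with 7 of 12 negative and a median of -0.03. P95H/+ replicates 1 and 2 lay below all wild-type libraries and replicate 3 above them. Without replicate 3 of both genotypes the B cell median was -0.88, and Blk, which is also in the partner list, was called lower. Blk passed the filter there only through wild type, so nothing is read from this call. The 9 early lymphoid genes summed to 392, 440 and 670 CPM in P95H/+, against 619, 715 and 520 CPM in wild type, with 8 of 9 negative and a median of -0.36. In 1 of them, 11.1%, the groups did not overlap. Without replicate 3 of both genotypes their median was -0.63, and 3 of 9 were called, all lower in P95H/+, where 0.645% of all genes were called lower. These were Dntt, which adds bases at antigen receptor joints, at -1.24 (SE 0.17, edgeR adjusted p 0.0495), Satb1, a chromatin organiser, at -0.54 (SE 0.09, edgeR adjusted p 0.0272), and Lsp1 at -0.77 (SE 0.10, edgeR adjusted p 0.00842). With replicate 3 the groups of all 3 genes overlapped, and without it no P95H/+ library had a wild-type library of the same sex and age. The 8 plasma cell markers summed to 72.3, 58.1 and 49.1 CPM in P95H/+, against 60.2, 34.4 and 26.7 CPM in wild type, and their median of 0.30 was -0.02 without replicate 3 of both genotypes.

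Among markers of other progenitors, the 12 stem cell genes summed to 166, 213 and 144 CPM in P95H/+, against 295, 208 and 149 CPM in wild type. The sums overlapped, 9 of 11 tested members were negative, and the median was -0.36 with all libraries and -0.45 without replicate 3 of both genotypes. In Procr, Ly6a and Fgd5, 27.3% of the tested members, every P95H/+ library lay below every wild-type library, and 0 stem cell genes were called in either fit. The 7 granulocyte precursor genes in the table summed to 9535, 8538 and 9878 CPM in P95H/+, against 6826, 7899.9 and 11702 CPM in wild type, which also overlapped. All 7 had a positive log2 fold difference, with a median of 0.29 with all libraries and 0.36 without replicate 3 of both genotypes, and 0 were called in either fit. Of 9 tested megakaryocyte and platelet genes 8 were positive, with a median of 0.31, which was 0.02 without replicate 3 of both genotypes. Of 8 tested erythroid genes 6 were positive, with a median of 0.17. Mast cell and basophil genes had 4 of 8 positive (median 0.01), as had monocyte and macrophage genes (median -0.07). In these lists too, 0 genes were called in either fit. The part of any of these cells in the Lax1 level was not tested.

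The genes whose levels over the 6 libraries were most like those of Lax1 were taken from 11243 genes with a mean of at least 2 CPM, by Pearson's r of log2 CPM. They were Hectd2 at 0.977, Dgka at 0.976, Nkx2-3 at 0.969, Isca1 at 0.966 and Rcbtb2 at 0.965, and 46 genes lay above 0.9. Nkx2-3, a homeobox gene, stood at 6.09, 6.68 and 6.70 CPM in P95H/+, against 17.6, 16.3 and 13.8 CPM in wild type, which was the widest gap of the 5. The same measure with Lax1 was 0.52 for Lat, 0.40 for Lat2, 0.21 for Pag1 and -0.77 for Sit1. These values describe 6 libraries whose difference between genotypes chose Lax1, and they carry no test.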

How the data were processed

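Total RNA depleted of ribosomal RNA went through a strand-keeping library kit and paired-end sequencing, per the labels' protocols. Per the submitters' processing notes, STAR 2.5.3a, featureCounts of Subread 1.5.1 and the build mm10 were among those used; the strand setting is not given in the sources used here. The deposited table holds raw counts per gene. The authors' CPM tables equal these counts over the total of their genes within 0.0005, and CPM here are over the whole library.

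Genotypes were compared in edgeR 4.0.16 (R 4.3.3) with TMM scaling, filterByExpr, robust quasi-likelihood F tests (two-sided) and Benjamini-Hochberg adjustment over all tested genes, threshold 0.05. SE follows from F, and intervals use its degrees of freedom. Scripts were tested on simulated counts. DESeq2 1.42.0, other scalings and filters, sex, a GC spline with 4 degrees of freedom, and fits without libraries were alternatives. Replicate numbers met a rule for pairing, since deviations from group means correlated above 0.1 for each number (0.372, 0.348 and 0.613), although unlike numbers 1 and 2 correlated as much (0.386 and 0.463).

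The members, gene lists and alternatives were chosen with earlier results of these data known. Within the partner list, the 3 genes with the smallest p and the 2 with the highest CPM in each group are named. Lengths, overlaps and GC content came from GENCODE M21, which holds 25878 of the 26027 identifiers, and promoters from RefSeq, with 3 of 5 members matched.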

Additional observations from a re-analysis of the deposited data

How the results depend on the processing

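The count of genes called between genotypes, 0 with all 6 libraries, was 8 with DESeq2, 1 with the replicate block and 144 without replicate 3 of both genotypes, and 0 to 1 when each library was left out. For the partner list it was 0 in these fits except 2 without replicate 3 of both genotypes. The cause was not tested. The sign of the Pag1 log2 fold difference, 0.05, turned to -0.032 with scaling by library totals alone and to -0.33 without replicate 3 of both genotypes, and it lay between -0.20 and 0.16 when each library was left out, negative without P95H/+ replicate 3 (-0.20) or wild-type replicate 3 (-0.07). Lax1, Lat and Lat2 were negative and Sit1 positive in every fit that gave a value. Leaving out each library gave -1.27 to -0.95 for Lax1, -0.71 to -0.07 for Lat, -0.36 to -0.12 for Lat2 and 0.71 to 1.81 for Sit1, which fell below the count filter without P95H/+ replicate 2. With the replicate block, Lax1 was at -1.10, Lat at -0.35, Lat2 at -0.24, Pag1 at 0.02 and Sit1 at 1.22, and no call of these genes changed. Depth limits Sit1, with 2 to 19 counts a library.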

Other observations

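Some partner genes were highest in P95H/+ replicate 3. Rasgrp4, a Ras exchange factor of mast cells, stood at 1.75, 2.65 and 24.8 CPM in P95H/+ replicates 1, 2 and 3, against 5.65, 3.17 and 5.11 CPM in wild type. Dok2 stood at 12.4, 16.5 and 46.4 CPM in P95H/+, against 16.8, 14.1 and 21.0 CPM in wild type. Dgkz stood at 240, 273 and 524 CPM in P95H/+, against 245, 243 and 409 CPM in wild type, so that it was high in replicate 3 of both genotypes.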
